A study of Danio rerio with 3 samples.

Results

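The genes described are 10 genes of neutrophils and macrophages, listed by symbol: mpx, lyz, mpeg1.1, csf1ra, marco, coro1a, lcp1, spi1b, spi1a and cebpa. A gene was taken where the platform's probe annotation gives its symbol, which holds for 9 of the 10, out of 15571 annotated genes. The annotation used here lists no probe for marco. The 9 genes have 16 probes: 4 for mpx, 2 each for spi1b, mpeg1.1, csf1ra and cebpa, and 1 each for lyz, spi1a, coro1a and lcp1.

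The study compared zebrafish embryos exposed to LY-364947, a small-molecule inhibitor of the kinase of TGF-β receptor 1, with untreated embryos. Wild-type embryos of the Ab strain spent hours 8 to 48 after fertilisation in 40 µM LY-364947, and the untreated embryos were of the same strain and collected at 48 hours. Each replicate was RNA of 10 to 15 whole embryos, and each of 3 treated replicates shared a 2-colour Agilent array with 1 common pool made from 3 untreated replicates. In replicates 1 and 3 the treated RNA was labelled with Cy3, and in replicate 2, the dye swap, with Cy5. The labels describe untreated embryos and name no vehicle.

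Neutrophils and macrophages are the first white blood cells of the zebrafish embryo, and both already patrol tissues at this stage. The transcription factor Spi1 (PU.1) starts the myeloid programme, and C/EBP factors act with it during granulocyte formation. Neutrophils then fill granules with enzymes such as myeloperoxidase, while macrophages depend on the receptor Csf1r and make the pore-forming protein Mpeg1. Of these genes, some are also used elsewhere: csf1ra in yellow pigment cells, and cebpa in the liver.

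Values are log ratios of the 2 channels, read as log2, although the sources used here do not give the base. The signs are those of the arrays of replicates 1 and 3; the values of replicate 2 were multiplied by -1, because replicate 2 as deposited correlated with replicates 1 and 3 at r = -0.742 and r = -0.647 over all probes. The sources leave the numerator unstated. If it follows the sample titles, positive means higher in treated embryos, and if it is Cy5 over Cy3, positive means higher in the untreated pool. Genes are therefore placed on the positive or the negative side, and a call is a gene past an adjusted p of 0.05 there. Whole-embryo RNA cannot tell fewer cells of a type from less RNA per cell, and a table of ratios does not show how strongly a gene was expressed.

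The neutrophil and macrophage genes had mean ratios of both signs, with a median size somewhat above that of all genes. All 9 mean ratios lay between -0.25 and 0.22, with 5 of them positive and 4 negative, and their median was 0.049, against -0.0013 over all genes. The median size of a mean was 0.11 among the 9 genes and 0.089 over all genes. By limma with Benjamini-Hochberg adjustment over all genes, 1 of the 9 (11.1%) passed an adjusted p of 0.05, lyz on the negative side. Over all 15571 genes, 19.4% passed on either side and 9.43% on the negative side, so the single call lies below the first share and slightly above the second, and is not read as a result about the group. At an unadjusted p of 0.05 by limma, 2 of the 9 passed, lyz and mpeg1.1, while 5054 of all 15571 genes did, a larger share. The count of 1 became 0 without replicate 2 and 2 without replicate 3, again lyz and mpeg1.1, while the share over all genes became 6.69% without replicate 2 and 23.7% without replicate 3. The 95% intervals of the 9 means together ran from -0.40 to 0.44, a fold of 1.32 and 1.36 at the ends, and leave out the untreated embryos' own spread.

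**Figure D1:**
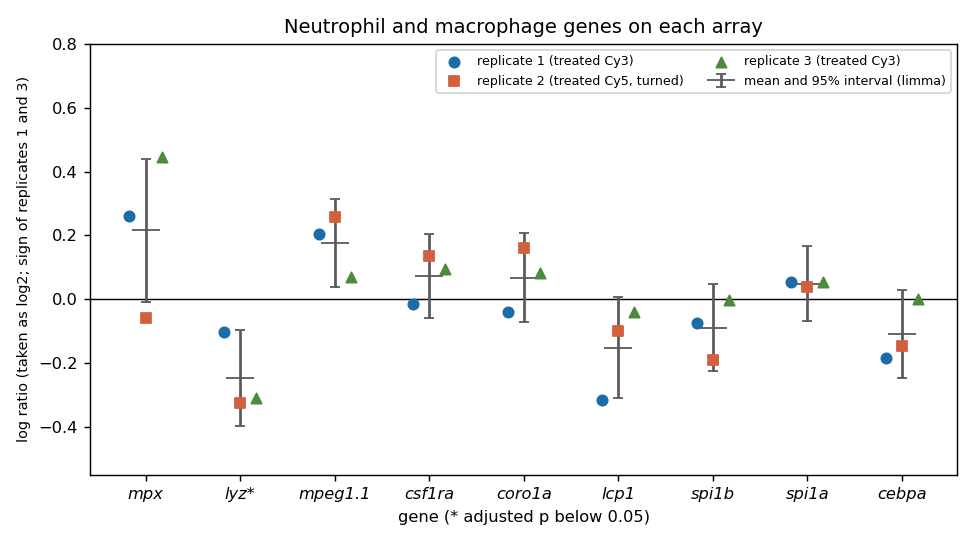
Log ratios (y axis, taken as log2, in the sign of replicates 1 and 3) of the 9 neutrophil and macrophage genes (x axis) on each of the 3 arrays, with the mean and its 95% limma interval; positive is higher in treated embryos by the titles and in the pool for Cy5 over Cy3. The lyz points are all below 0, the mpeg1.1 points are all above 0, and mpx spans -0.06 to 0.45.

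Among the granule genes, lyz had a negative mean that passed, while mpx had a positive mean that did not pass and rested on 1 of its 4 probes. The gene lyz encodes lysozyme, an enzyme that breaks bacterial cell walls and is made by zebrafish neutrophils and some macrophages. Its log ratios were -0.10, -0.33 and -0.31 on replicates 1, 2 and 3. The array of replicate 1 was the nearest to 0, and none crossed it. The mean of -0.25 ± 0.12 (SD, n = 3) is a 1.19-fold difference, with a limma adjusted p of 0.0359. Lysozyme has 1 probe, and over all 43603 probes, of which 10.4% passed, the same values had an adjusted p of 0.0664. Without replicate 2 the lyz mean was -0.21 (limma adjusted p = 0.252), and with a dye term -0.27 (adjusted p = 0.0936).

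The gene mpx encodes myeloperoxidase, the peroxidase of neutrophil granules. Averaged over its 4 probes it stood at 0.26, -0.06 and 0.45 on replicates 1, 2 and 3, so the dye-swapped array was on the other side of 0. Its mean of 0.22 ± 0.26 (SD, n = 3) did not pass (limma adjusted p = 0.168), and its SD was the widest of the 9 genes, against a median of 0.09 over all genes. The dye coefficient of mpx, fitted with 1 residual degree of freedom, was -0.21, with an unadjusted limma p of 0.0337 and an adjusted p of 1.00. Only replicate 2 was swapped, so the dye and that replicate's own difference cannot be told apart.

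The mpx mean rested on a single probe. Probe A_15_P102435 had log ratios of 1.05, 0.47 and 1.27, a mean of 0.93 ± 0.42 (SD, n = 3) or 1.90-fold, and it was the 1 probe of the 16 that passed over all probes (limma adjusted p = 0.00960; 5.46% of all probes passed on the positive side). Values above 1 in size occurred 2 times among the members' probes, both on this probe. The other mpx probes had means nearer 0, with values on single arrays from -0.29 to 0.34. Probe A_15_P132151 averaged 0.10 ± 0.26, A_15_P158481 averaged -0.09 ± 0.15 and A_15_P158486 averaged -0.08 ± 0.31, and none passed (limma adjusted p = 0.598, 0.517 and 0.740). Without replicate 3, A_15_P158486 averaged -0.26 and passed on the negative side (limma adjusted p = 0.0277), opposite to A_15_P102435, and 4 of the 16 probes passed. The share of all probes in that fit was not counted, so nothing is read from that count. Over all genes the share without replicate 3 was 23.7%, against 19.4% with all arrays. On each of the 4 mpx probes, replicate 2 gave the lowest value.

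The annotation ties all 4 mpx probes to the same transcript record, and it does not say where on the transcript each one lies. Probe means of mpx spanned 1.02 log2 units. Of the 287 genes with 4 probes, 2 spanned more, and the median was 0.23. Without probe A_15_P102435, a setting chosen after its value was seen, the mpx mean changed sign to -0.02 (limma adjusted p = 0.890), and replicates 1, 2 and 3 had -0.0026, -0.23 and 0.17. No sequence of these probes was used here, so which transcripts each probe binds was not tested.

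**Figure D2:**
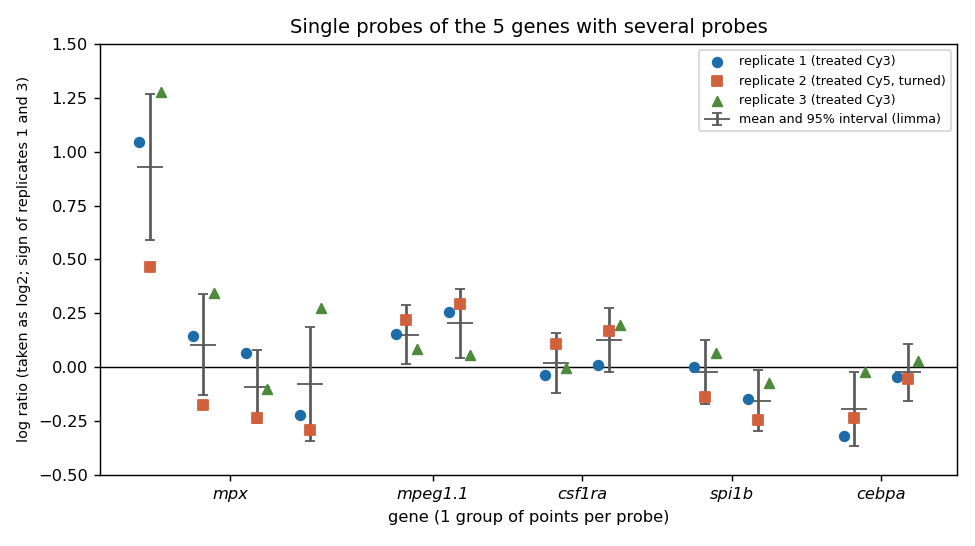
Log ratios (y axis, taken as log2, in the sign of replicates 1 and 3) of each probe of the 5 genes with several probes, grouped by gene along the x axis, with points for the 3 arrays and the mean with its 95% limma interval; positive is higher in treated embryos by the titles and the reverse for Cy5 over Cy3. The first mpx probe, A_15_P102435, stands at 0.47 to 1.27, apart from the other mpx probes, while the probe means of each other gene lie within 0.17 of each other.

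Both macrophage genes had positive means, and neither passed. The gene mpeg1.1 encodes the pore-forming protein that marks zebrafish macrophages. It had 0.20, 0.26 and 0.07 on replicates 1, 2 and 3, all on the positive side, with the lowest value on replicate 3. Its mean of 0.18 ± 0.10 (SD, n = 3), a 1.13-fold difference, had a limma adjusted p of 0.0791, and the 95% interval ran from 0.04 to 0.31. Its probes lay close together, at 0.15 and 0.20. Without replicate 3 the mean was 0.23 and passed (limma adjusted p = 0.0208).

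The gene csf1ra encodes a receptor for Csf1 and Il34, needed for macrophages to enter tissues and for yellow pigment cells to form. Its log ratios were -0.02, 0.14 and 0.10 on replicates 1, 2 and 3, so the arrays did not share a sign. The mean was 0.07 ± 0.08 (SD, n = 3) with a limma adjusted p of 0.424. Yellow pigment cells, the other source of csf1ra RNA, had 10 measured marker genes, with 0 positive and 2 negative calls. That is 20%, against 19.4% of all genes on either side and 9.43% on the negative side. Those were gart (-0.83 ± 0.10, limma adjusted p = 0.000320), an enzyme of purine synthesis in dividing cells as well, and scarb1 (-0.54 ± 0.20, 0.00462), a lipoprotein receptor used in many tissues. The means of that list were 6 positive and 4 negative, with a median of 0.03. The part of yellow pigment cells in the csf1ra value was not tested.

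The cytoskeletal genes of white blood cells did not share a side. The gene coro1a, for the actin-binding protein coronin 1A, had -0.04, 0.16 and 0.08 on replicates 1, 2 and 3, a mean of 0.07 ± 0.10 (limma adjusted p = 0.480). The gene lcp1, for L-plastin, which bundles actin filaments in all white blood cells, had -0.31, -0.10 and -0.04. All 3 lcp1 values were negative, with replicate 1 the farthest from 0, and the mean of -0.15 ± 0.14 did not pass (limma adjusted p = 0.170).

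None of the transcription factor genes passed. The gene spi1b, the main zebrafish PU.1 gene of early myeloid cells, had -0.07, -0.19 and -0.0031 on replicates 1, 2 and 3, a mean of -0.09 ± 0.09 (limma adjusted p = 0.345). Its paralog spi1a had the smallest spread of the 9 genes, with 0.05, 0.04 and 0.05 and a mean of 0.05 ± 0.01 (limma adjusted p = 0.554). With no variance shared between genes, 0 of all genes passed, so the result of spi1a in that fit (adjusted p = 0.143) carries no weight. In that fit 1 of the 9 genes had an unadjusted p below 0.05, against 3417 of all 15571 genes. The smallest adjusted p among the 9 was that of spi1a. The gene cebpa, for C/EBPα, had -0.18, -0.14 and 0.0014, a mean of -0.11 ± 0.10 (limma adjusted p = 0.250), with probes at -0.19 and -0.02.

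The 3 arrays set the limits of these comparisons, since an exact sign-flip test of 3 values cannot give a two-sided p below 0.25. Of the 9 genes, 5 had the same sign on all arrays (lyz, lcp1, spi1b, spi1a and mpeg1.1), against 52.3% of all genes. By array, 3, 4 and 6 of the 9 were positive on replicates 1, 2 and 3.

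**Figure D3:**
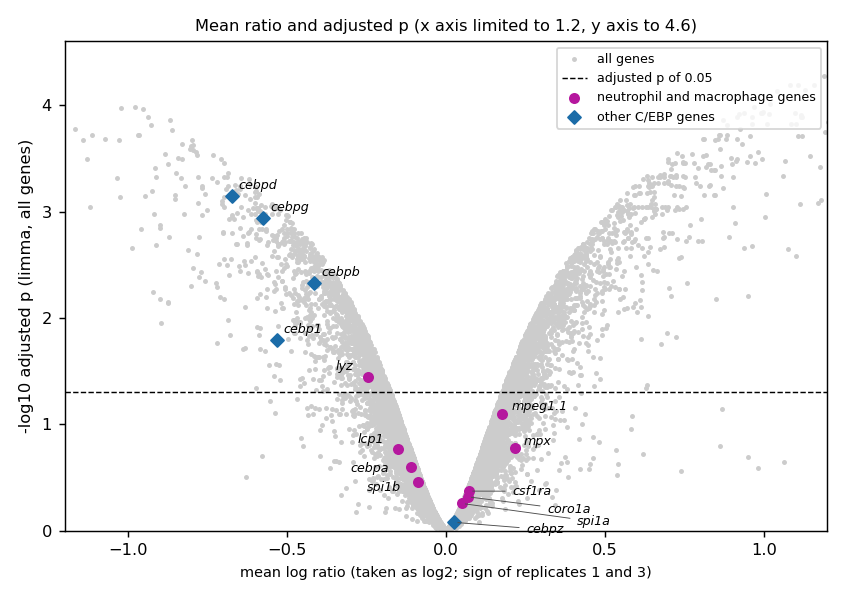
Mean log ratio (x axis, taken as log2, in the sign of replicates 1 and 3, positive being higher in treated embryos by the titles and in the pool for Cy5 over Cy3) against -log10 of the limma adjusted p (y axis) for all genes in grey, the 9 neutrophil and macrophage genes as circles and the other C/EBP genes as diamonds; both axes are limited, so genes beyond them are not drawn. Of the circles, lyz alone lies above the line at an adjusted p of 0.05, while cebpb, cebpd, cebpg and cebp1 lie above it on the negative side. The C/EBP genes were singled out after the values were seen.

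Calls among other transcription factor genes fell on both sides, with several C/EBP genes on the negative side. Of 23 measured transcription factor genes of blood and myeloid cell formation, there were 6 negative and 3 positive calls, or 39.1% against 19.4% of all genes, and the median of the list was 0.02. Without replicate 2 the count of 9 fell to 5, while the share over all genes fell to 6.69%. Since the list was chosen with earlier results of these data known, its share of calls is not read as a result. The C/EBP family gave 4 of the 6 negative calls. The gene cebpd stood at -0.76, -0.71 and -0.55 on replicates 1, 2 and 3, with a mean of -0.68 ± 0.11 (limma adjusted p = 0.000717), and cebpg averaged -0.58 ± 0.10 (0.00115). The gene cebpb, for a C/EBP factor of emergency granulocyte formation in mammals, averaged -0.41 ± 0.11 (limma adjusted p = 0.00471).

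The fourth was cebp1, a C/EBP gene expressed in zebrafish myeloid cells, with -0.27, -0.87 and -0.46 on replicates 1, 2 and 3. Its mean was -0.53 ± 0.31 (limma adjusted p = 0.0162), and without replicate 2 it was -0.36 and did not pass (adjusted p = 0.0698). With cebpa and with cebpz, which has the name but not the family's leucine zipper and stood at 0.03 ± 0.13, 6 genes with a C/EBP name were measured, singled out after the values were seen. They gave 4 negative calls and 0 positive ones, where 9.43% of all genes passed on the negative side, and because of how the 6 were picked nothing is read from that count. The genes cebpb, cebpd and cebpg are used in many tissues, and which cells these ratios come from was not tested.

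The other calls of that list included myb, a factor of blood stem cells and of dividing neural cells, at -0.62 ± 0.04 (limma adjusted p = 0.000550), and gata1a, the main red cell factor, at -0.28 ± 0.05 (0.0112), whose call was lost without replicate 2 (0.0817). On the positive side were id2a at 0.52 ± 0.03 (limma adjusted p = 0.000972), tal1 at 0.31 ± 0.12 (0.0160) and fli1 at 0.27 ± 0.11 (0.0199). The 3 probes of id2a ran from 0.05 to 0.76.

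Of 17 measured neutrophil effector genes besides mpx and lyz, 1 was a positive and 3 were negative calls (23.5%, against 19.4% of all genes), with a median of 0.0013. Without replicate 2 the count of 4 fell to 2, and the share over all genes to 6.69%. The negative calls were cebp1, which is also in the factor list, and a pair of matrix metalloproteinase genes. The gene mmp9, for the gelatinase of neutrophil granules, had -0.89, -0.98 and -0.40 on replicates 1, 2 and 3, a mean of -0.76 ± 0.31 (limma adjusted p = 0.00451). The collagenase gene mmp13a averaged -0.56 ± 0.22 (limma adjusted p = 0.00534), and without replicate 2 it was -0.47 and did not pass (0.0536). Skin cells also make both proteases. The positive call was cfd, for complement factor D, at 0.90 ± 0.12 (limma adjusted p = 0.000315).

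Of 30 measured macrophage and microglia genes, 1 was a positive and 2 were negative calls (10.0%, against 19.4% of all genes), with a median of -0.01. The chemokine gene ccl34b.1 had 0.96, 0.99 and 0.95 on replicates 1, 2 and 3, a 1.96-fold difference with a limma adjusted p of 0.000103. It was the largest mean ratio among the genes of the macrophage list and had an SD of 0.02. The apolipoprotein gene apoeb, made by microglia but also by the yolk layer and skin, averaged -0.52 ± 0.08 (limma adjusted p = 0.00144). The tetraspanin gene tspan36 averaged -0.25 ± 0.10 (limma adjusted p = 0.0262), and its call was lost without replicate 1 (0.0681) and without replicate 2 (0.0971).

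Of 26 measured genes shared by white blood cells, 5 were positive calls and 0 negative (19.2%, against 19.4% of all genes on either side and 9.92% on the positive side), with a median of 0.01, so the number of calls was at the background. They were coro1b, a broadly used coronin, at 0.74 ± 0.07 (limma adjusted p = 0.000342), samsn1a at 0.38 ± 0.09 (0.00466), fcer1gl, an Fc receptor adaptor of myeloid cells, at 0.38 ± 0.12 (0.00668), arhgdig at 0.42 ± 0.28 (0.0289) and rac2 at 0.25 ± 0.09 (0.0246). The gene rac2, for a GTPase needed for neutrophil movement, had 1 probe of 2 that passed on its own, and so did arhgdig. Without replicate 2, fcer1gl, arhgdig and rac2 did not pass (limma adjusted p = 0.0619, 0.137 and 0.183), and without replicate 1, arhgdig and rac2 did not (0.0615 and 0.102).

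Growth factor and receptor genes of blood cells gave no call where they were measured. Of 14 listed genes of colony stimulating factors, Kit and related ligands and receptors, 9 were measured. The annotation lists no probe for csf1a, csf3a, csf3r, flt3 and mpl. Of the 9, 0 passed by limma, against 19.4% of all genes. An unadjusted limma p below 0.05 was reached by 1 of the 9, against 5054 of all 15571 genes. With so few genes, the count of 0 is not read as a result about them. The Csf1r ligand genes il34 and csf1b stood at -0.12 ± 0.09 (limma adjusted p = 0.189) and 0.12 ± 0.17 (0.315). The second zebrafish Csf1 receptor gene, csf1rb, stood at -0.0010 ± 0.09 (0.992) and the Csf3 ligand gene csf3b at -0.04 ± 0.09 (0.674). The Kit ligand gene kitlgb had the widest difference, -0.25 ± 0.18 (limma adjusted p = 0.0637), and without replicate 1 it passed at -0.35 (0.0195), while kitlga stood at 0.03 ± 0.05 (0.750). The receptor genes kita (-0.08 ± 0.06), kitb (0.06 ± 0.16) and epor (-0.03 ± 0.11) did not pass (limma adjusted p = 0.330, 0.643 and 0.746).

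Of 28 measured cytokine, chemokine and Toll receptor genes, 1 was a positive and 3 were negative calls (14.3%, against 19.4% of all genes), with a median of -0.07. Without replicate 2 the count of 4 was 2, and the share over all genes was 6.69%. The Socs3 genes, which damp cytokine receptor signals, were socs3a at -0.87 ± 0.27 (limma adjusted p = 0.00174) and socs3b at -0.70 ± 0.08 (0.000469). The chemokine gene cxcl12a averaged -0.30 ± 0.02 (limma adjusted p = 0.00746), with 1 of its 3 probes past the threshold, and without replicate 2 it did not pass (0.0802). The Toll receptor gene tlr18 averaged 0.26 ± 0.15 (limma adjusted p = 0.0390), and its call was lost without replicate 2 (0.215) and without replicate 3 (0.0638).

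Of 18 measured complement genes, 4 were negative calls and 0 positive (22.2%, against 19.4% of all genes on either side and 9.43% on the negative side), with a median of -0.07, so the number of calls was near the background. They were c6.2 (-0.76 ± 0.14, limma adjusted p = 0.000677) and c7a (-0.36 ± 0.02, 0.00365), components of the membrane attack complex, and c4b (-0.27 ± 0.17, 0.0411) and c3a.1 (-0.19 ± 0.04, 0.0428). Without replicate 1, c4b and c3a.1 did not pass (limma adjusted p = 0.125 and 0.121), nor without replicate 2 (0.275 and 0.195), and c3a.1 did not without replicate 3 (0.0748). Tested singly, 1 of the 2 c3a.1 probes and 2 of the 3 c4b probes passed. The complement gene cfd is not in this list but among the neutrophil effector genes. It was a positive call at 0.90 ± 0.12 (limma adjusted p = 0.000315), so the single side of the calls depends on how the lists were drawn.

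**Figure D4:**
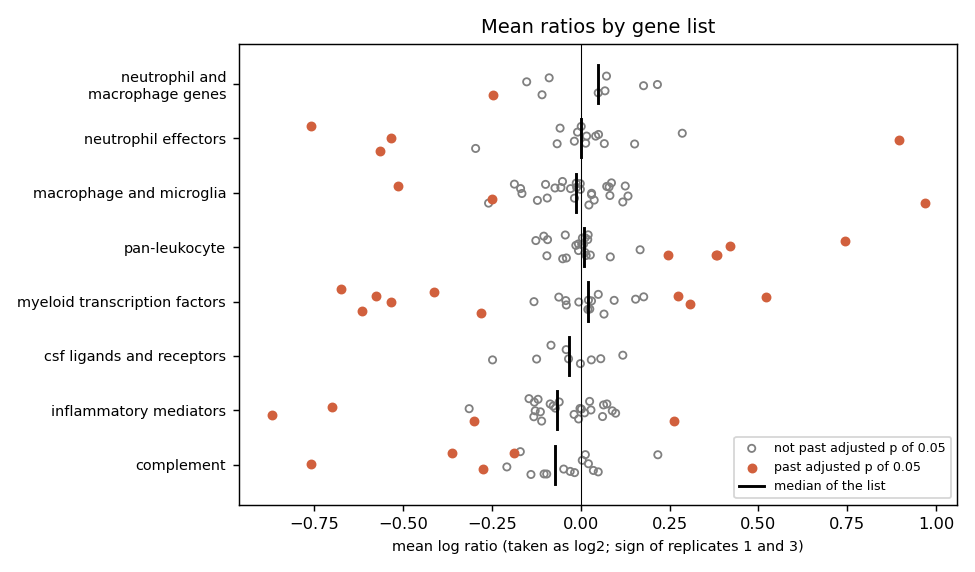
Mean log ratio (x axis, taken as log2, in the sign of replicates 1 and 3, positive being higher in treated embryos by the titles and in the pool for Cy5 over Cy3) of each measured gene in 8 lists (rows), filled where the limma adjusted p was below 0.05, with a bar at each list's median; vertical scatter within a row has no meaning. List medians lie between -0.07 and 0.05, and the calls of the complement list are all negative and those of the pan-leukocyte list all positive. The complement gene cfd, a positive call, is drawn in the neutrophil effector row.

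Markers of other cell types showed both small and large ratios. Among other blood cells, 3 of 17 erythroid genes were negative calls and 0 positive, with a median of -0.14. That is 17.6%, against 19.4% of all genes on either side and 9.43% on the negative side. They were the globin genes hbbe3 at -1.12 ± 0.29 (limma adjusted p = 0.000899) and hbbe2 at -0.63 ± 0.21 (0.00317), which share sequence, and gata1a, which is also in the factor list. The globin genes hbae3 (0.17 ± 0.19), hbae1.1 (-0.03 ± 0.29) and hbae5 (-0.26 ± 0.21) did not pass (limma adjusted p = 0.195, 0.858 and 0.0755). Of the 17 erythroid means, 3 were positive and 14 negative. Of 7 thrombocyte genes thbs1b alone passed (0.24 ± 0.14, limma adjusted p = 0.0478), with 1 of its 3 probes past the threshold. Of 13 lymphoid and thymus genes tox alone did (0.27 ± 0.12, limma adjusted p = 0.0220). These counts are 14.3% of the thrombocyte and 7.69% of the lymphoid list, both below the 19.4% of all genes. Both calls were lost without replicate 1 (limma adjusted p = 0.0657 and 0.0740) and without replicate 2 (0.153 and 0.0643), and that of thbs1b without replicate 3 (0.0946). Of 2 mast cell genes, too few to compare with the share over all genes, 0 passed by limma. An unadjusted limma p below 0.05 was reached by 1 of them, against 5054 of all 15571 genes.

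Outside the blood, 2 of 16 liver and yolk layer genes passed on each side, 25.0% in all against 19.4% of all genes. The means of that list were 6 positive and 10 negative, with a median of -0.02. The liver fatty acid binding protein gene fabp10a averaged 1.87 ± 0.20 (limma adjusted p = 5.24e-05), on the positive side, while cebpa, which the liver also uses, was at -0.11. On the negative side of that list were cp, for ceruloplasmin, at -0.35 ± 0.11 (limma adjusted p = 0.00849) and rbp4 at -0.26 ± 0.04 (0.0128). Of the 2 rbp4 probes, 1 passed on its own. Of 8 hatching gland genes, 4 were negative calls and 0 positive. That is 50%, against 19.4% of all genes on either side and 9.43% on the negative side. With so few genes, chosen with earlier results of these data known, the count is not read as a result about them. The calls included the cathepsin gene ctss2.1 at -3.19 ± 0.21 (limma adjusted p = 7.23e-06) and the hatching enzyme genes he1.1 at -0.58 ± 0.18 (0.00302) and he1.2 at -0.63 ± 0.30 (0.00795). The genes he1.3 (-0.02 ± 0.02) and hce2l1 (0.05 ± 0.09) did not pass (limma adjusted p = 0.792 and 0.571). Without replicate 2, he1.2 did not pass (limma adjusted p = 0.0757), nor did rbp4 (0.136). The liver list and the hatching gland list then each had 2 calls in place of 4, while the share over all genes was 6.69%. The part of other cell types in the ratios of the neutrophil and macrophage genes was not tested.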

How the data were processed

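For 43648 probes on 3 arrays, the deposited values are log ratios made by the authors and read here as log2. Per the submitters' processing notes, Partek was used. Its version, the correction for background, the normalisation, the numerator and the base of the logarithm are not given in the sources used. Without intensities, dim probes could not be left out. The number of arrays limits the precision.

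After 45 control probes were left out, the 23717 probes with 1 gene symbol in the platform annotation (several for 0, none for 19886) were averaged per gene. With limma 3.58.1 in R 4.3.3, lmFit and eBayes set each mean ratio against 0, with 2 residual degrees of freedom over 15571 genes, and over 43603 probes, at a Benjamini-Hochberg adjusted p of 0.05. The fit was also run on simulated data drawn from its own noise model, without a shared pool or dye effect, so that run does not test this design. The pool is 1 control sample that all ratios share, so the spread between untreated embryos is not in the test, and p-values measure the spread between the treated replicates. The members and gene lists were chosen with earlier results of these data known. Named beside the members were all measured genes of colony stimulating factors, Kit and related ligands and receptors. From each other list came the genes with the smallest adjusted p among those past the threshold. They were up to 6, or up to 3 for markers of other cell types. The genes tal1, fli1, hbae1.1, hbae3, hbae5, he1.3 and hce2l1 are named beside these to show more of their lists. Plots used matplotlib 3.10.9.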

Additional observations from a re-analysis of the deposited data

How the results depend on the processing

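No paired analysis was possible because every array sets a treated replicate against the same pool, so there is no second group with replicate numbers. The number of neutrophil and macrophage genes past the threshold was 1, and stayed 1 with centring, scaling, quantile normalisation, a robust prior, the median of probes and each probe tested singly, where the gene was mpx and not lyz. It was 0 with a dye term, with no shared variance, with a minimum change of 0.2 log2 units and at an adjusted p of 0.01, and 2 with the probe of largest mean size (lyz and mpx) and at an adjusted p of 0.1 (lyz and mpeg1.1). Leaving out a replicate gave 0 to 2 of these genes, 1041 to 3693 of all genes and 1 to 4 of the 16 probes. Among the 216 different genes of the other lists it gave 23 to 49, against 42 with all arrays. Over all genes the count of 3013 became 1465 with a dye term, 0 with no shared variance (3417 at an unadjusted p of 0.05 in that fit, and 5054 by limma), 781 with a minimum change and 1434 at an adjusted p of 0.01, and singly 4522 probes passed. The count over all 15571 genes also rose where that of the members became 2, to 3468 with the probe of largest mean size and 4138 at an adjusted p of 0.1. Of the members' probes, 0 passed with no shared variance and 2 at an adjusted p of 0.1. The share of all probes was not counted in these fits or with a replicate left out, so nothing is read from these probe counts. Of the 38 calls from the other lists that were named for their smallest adjusted p, 11 were lost with a dye term. The fits with a dye term or with 2 arrays have 1 residual degree of freedom, so a lost call does not show that a ratio depends on the dye or the array. Without probe A_15_P102435 the mpx mean was -0.022. With centring, the mean of csf1rb, which did not pass, was 0.00092. With each replicate left out in turn, some means that did not pass in any of these fits changed sign: mpx probe A_15_P132151 ran from -0.015 to 0.24, csf1rb from -0.055 to 0.034, csf3b from -0.085 to 0.0028, epor from -0.084 to 0.021, kitb from -0.037 to 0.11 and kitlga from -0.0017 to 0.046. The mpx probe A_15_P158486 ran from -0.26, which passed, to 0.026.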

Other observations

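The thrombocyte gene itga2b, for an integrin subunit of platelets and blood stem cells, had log ratios of -0.12, 0.32 and 3.00 on replicates 1, 2 and 3, from 1 probe. Its mean of 1.06 ± 1.69 (SD, n = 3) did not pass (limma adjusted p = 0.224). It was picked out after its values were seen. Replicate 3 alone holds the large value, and the other measured thrombocyte genes had means of at most 0.24.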
